A study of Sus scrofa with 50 samples.

Results

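The 10 genes described here set how muscle grows and wastes in the textbook account: myostatin (MSTN) and its inhibitor follistatin (FST), the myogenic factors MYF5, MYOD1, MYOG and MYF6, the transcription factor FOXO1, the ubiquitin ligases FBXO32 (atrogin-1) and TRIM63 (MuRF1), and the methyltransferase METTL21E. Each gene is the sum of TPM (a transcript's length-normalised share of its library) over the assembled transcripts whose best Swiss-Prot hit had that gene's entry name at an E value of at most 1e-10. This gave 23 of the 57085 assembled transcripts and 10 of the 14412 genes that the same rule made over the whole data set. RNA came from Korean minipigs (Sus scrofa) of 2 types, 5 animals of the ET type (S0235, S0242, S0276, S0309, S0326) and 5 of the L type (S0349, S0355, S0377, S0384 and S0385). Every animal gave loin, tenderloin, backfat, brain and lymph tissue, which makes 50 libraries. The labels name no treatment, age or sex, and the letters ET and L are used as given. The series is described as a comparison of the transcriptomes of the types.

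Myostatin is a secreted member of the TGF-beta family that restrains muscle growth, signals through activin type II receptors and SMAD proteins, and is bound and blocked by follistatin. The myogenic factors are muscle-specific transcription factors that commit precursor cells and drive their differentiation, and MYF6 is the member most abundant in mature fibres. In wasting muscle, FOXO factors raise FBXO32 and TRIM63, which mark muscle proteins for the proteasome. METTL21E is described in mice as a muscle-enriched lysine methyltransferase that acts on the ATPase VCP.

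In the RefSeq annotation of Sscrofa11.1, 9 of the 10 genes were found by symbol and all 9 are protein-coding. MSTN lies at chr15:94623526-94628440, FST at chr16:32806341-32811382, MYOD1 at chr2:41422522-41424236 and MYOG at chr9:113783233-113785312. MYF5 (chr5:100753440-100755558) and MYF6 (chr5:100762918-100764771) are neighbours on chromosome 5. FOXO1 lies at chr11:15317222-15410059, FBXO32 at chr4:15895875-15925929 and TRIM63 at chr6:83493200-83507471. METTL21E was not matched. The assembled transcripts were not aligned to this genome, and a gene name here stands for the closest described protein. MSTN, FST, MYF5 and MYOG rested on 1 transcript each, MYOD1, MYF6 and FOXO1 on 2, METTL21E on 3, and FBXO32 and TRIM63 on 5 each.

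Of the 50 libraries, 5 did not carry the defining transcripts of their labelled tissue and were left out. The backfat library of S0355 summed to 46550 TPM over 4 skeletal muscle markers, against 9.67 to 147 TPM in the other backfat libraries, and the loin library of the same animal to 25.2 TPM, against 25507 to 59394 TPM in the other loins. That loin library held 12008 TPM of 4 adipocyte markers, against 4.99 to 50.03 TPM in the other loins and 469 to 16664 TPM in the other backfats, so each of these libraries of S0355 had the marker levels of the tissue on the other's label. The lymph library of S0235 had 8.80 TPM of 3 T cell markers, against 747 to 1722 TPM in the other lymph libraries. In brain, S0235 and S0355 stood at 37706 and 53547 TPM of 3 myelin markers, against 44.2 to 115 TPM in the other brain libraries, which carried 20971 to 82994 TPM of pituitary hormone transcripts. The 45 libraries kept held 5 ET and 4 L loins, 5 ET and 5 L tenderloins, 5 ET and 4 L backfats, 4 ET and 4 L brains, and 4 ET and 5 L lymph samples. Brain below is the label of the libraries kept, all of which carried those pituitary hormone transcripts. Their levels need not be those of brain tissue in general. The number of reads behind a library is unknown, because TPM keeps no depth.

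Muscle was where most of these genes were expressed. Of the 10 genes, 7 (MSTN, MYOD1, MYOG, MYF6, FBXO32, TRIM63 and METTL21E) were higher in loin and in tenderloin than in each of backfat, brain and lymph, at an adjusted p under 0.05 for all 6 differences, against 6.48% of the 13445 genes tested. TRIM63 averaged 690 ± 1008 TPM in loin (SD, n = 9) and 331 ± 426 TPM in tenderloin (n = 10), with at most 8.65 TPM in any library of the other tissues. MYF6 averaged 122 ± 39.0 TPM in loin and 122 ± 92.0 TPM in tenderloin, with at most 0.962 TPM elsewhere. FST and FOXO1 were tested and did not show the pattern. MYF5 was too low on average over the tissues to be tested.

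**Figure D1:**
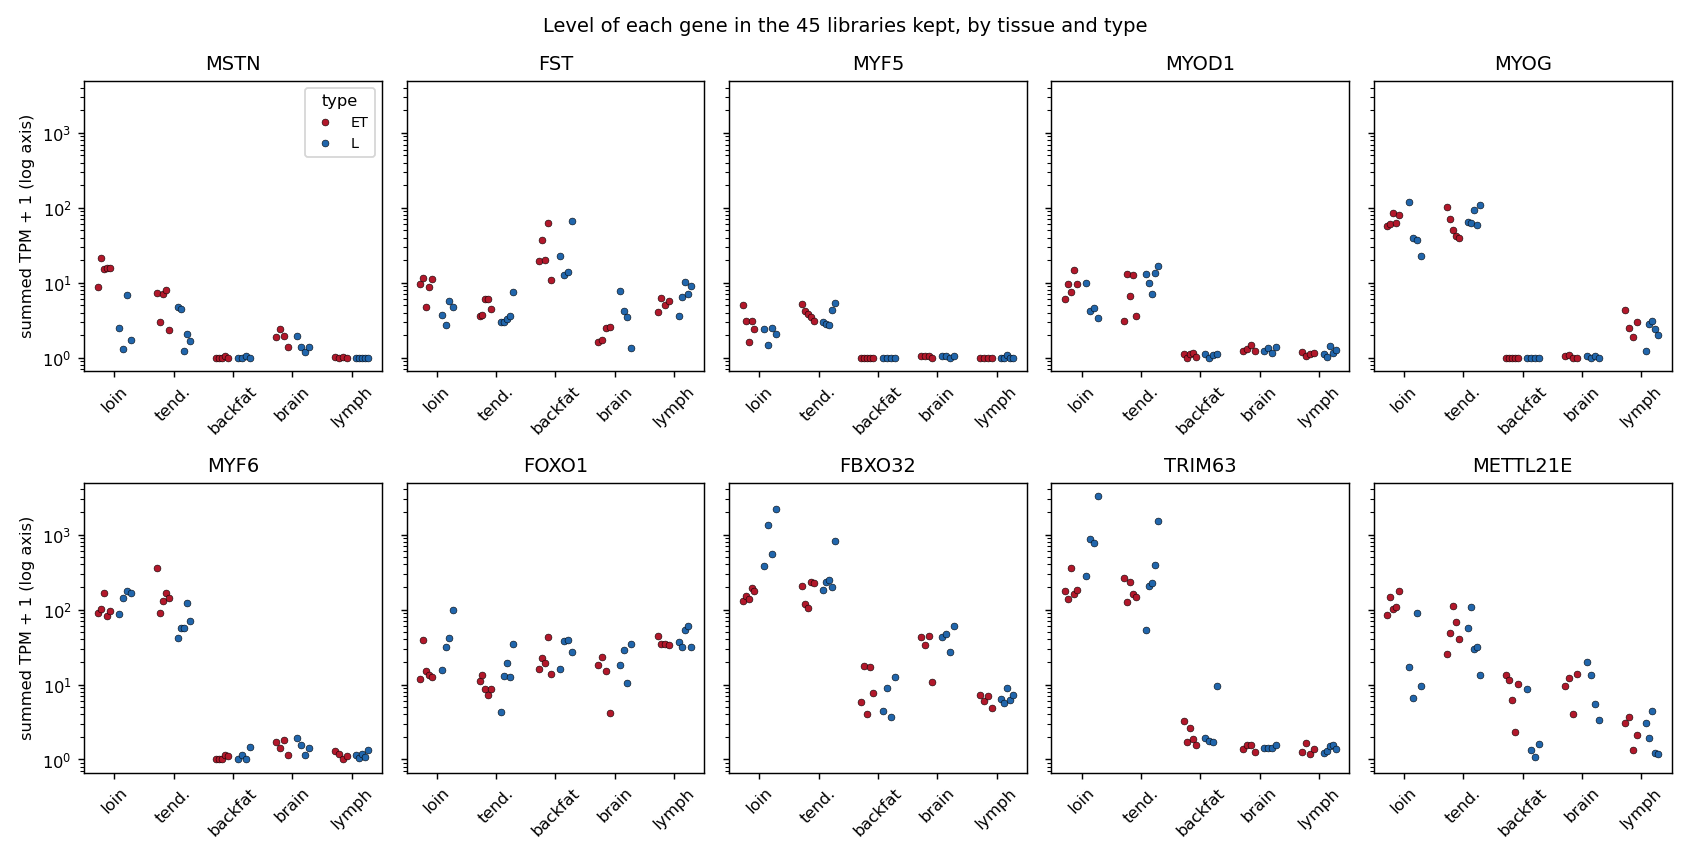
Summed TPM + 1 (log axis) of each of the 10 genes in the 45 libraries kept, by tissue, with ET libraries (red) left of L libraries (blue); each point is 1 library. TRIM63, MYF6 and MYOG separate the muscles from the other tissues, while FST is highest in backfat and FOXO1 is spread over all tissues. The libraries labelled brain carry pituitary hormone transcripts.

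FST had its highest mean in backfat and was above 0 TPM in every library kept of the 5 tissues. It averaged 28.9 ± 21.6 TPM in backfat (SD, n = 9), 5.97 ± 3.32 in loin (n = 9), 5.39 ± 2.17 in lymph (n = 9), 3.46 ± 1.60 in tenderloin (n = 10) and 2.15 ± 2.08 in brain (n = 8). Backfat lay 1.95 above loin on the log2(TPM + 1) scale (limma, adjusted p = 1.02e-06), while none of the next 3 neighbouring pairs in this order passed. FOXO1 was ordered lymph, backfat, loin, brain and tenderloin by its mean log2 level, with no pair of neighbours apart, and its lymph mean of 39.2 ± 10.4 TPM lay 1.74 above the tenderloin mean of 12.3 ± 8.59 TPM on the log2 scale (limma, adjusted p = 4.93e-06).

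Among the myogenic factors, MYF5 was the least abundant, at 1.64 ± 1.07 TPM in loin (n = 9) and 2.82 ± 0.961 TPM in tenderloin (n = 10), with at most 0.0796 TPM in any other tissue. MYOD1 reached 0.459 TPM at most outside muscle. MYOG, the factor of terminal differentiation, was listed at 0 in every backfat library kept and at 0 to 0.106 TPM in brain. In lymph it stood at 0.246 to 3.40 TPM in all 9 libraries, 1.26 above brain on the log2 scale (limma, adjusted p = 3.37e-06), and 4.51 below loin (adjusted p = 4.39e-23). MYF6 in the same lymph libraries was at 0.0232 to 0.321 TPM and the 4 skeletal muscle markers summed to 3.78 to 25.2 TPM. The part of muscle RNA in the lymph value was not tested.

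MSTN had its highest mean in loin (8.94 ± 7.37 TPM, n = 9), then tenderloin (3.21 ± 2.54, n = 10) and brain (0.695 ± 0.410, n = 8), and was at 0 to 0.0574 TPM in backfat and lymph. FBXO32 and METTL21E followed the order loin, tenderloin, brain, backfat and lymph. In the libraries labelled brain, with their pituitary hormone transcripts, FBXO32 kept 37.7 ± 15.0 TPM. Backfat had 8.11 ± 5.48 TPM (n = 9, limma against brain, adjusted p = 5.79e-06) and lymph 5.62 ± 1.15 TPM. METTL21E had 9.22 ± 5.75 TPM in brain, 5.24 ± 4.81 in backfat and 1.46 ± 1.18 in lymph, and neighbours in that run did not pass.

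In loin, ET animals had more myostatin, follistatin and METTL21E transcript and less FBXO32 and TRIM63 transcript than L animals. These 5 of the 10 genes passed an adjusted p under 0.05 (limma, 5 ET and 4 L libraries), 3 higher and 2 lower in ET, against 31.4% of the 10571 genes tested, 6.17% higher and 25.2% lower. The median log2 fold change of the 10 genes was 0.53, and that of all genes tested was -0.23. With libraries scaled by the median of their gene ratios the all-gene median became 0.01 and 23.2% of all genes were called, 11.9% higher and 11.3% lower. The same 5 genes kept their direction and call under that scaling, with log2 fold changes of 2.75 for MSTN, 1.32 for FST, 3.0 for METTL21E, -2.23 for FBXO32 and -1.93 for TRIM63. Fewer cells of a type and less RNA per cell cannot be told apart in these bulk samples. The p-values measure the spread between these animals alone.

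MSTN stood at 7.87, 20.3, 14.1, 14.8 and 14.9 TPM in the ET loins, in the order S0235, S0242, S0276, S0309 and S0326, against 1.5, 0.292, 5.90 and 0.730 TPM in the L loins, in the order S0349, S0377, S0384 and S0385. The lowest ET loin lay above the highest L loin, a separation shared by 3.8% of the genes tested. MSTN and FBXO32 were the 2 of the 10 whose groups did not overlap, against 25.4% of all genes in either direction. The means were 14.4 ± 4.43 TPM in ET and 2.11 ± 2.58 TPM in L, a ratio of 6.84, and the log2 fold change was 2.57 (SE 0.42, limma adjusted p = 0.00274). Leaving out any 1 library kept the log2 fold change between 2.26 and 3.06.

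FST, the inhibitor that binds myostatin and activins, stood at 8.69, 10.4, 3.77, 7.73 and 10.2 TPM in the ET loins, against 2.74, 1.77, 4.64 and 3.74 TPM in the L loins, with animals in the same order. Only the ET loin of S0276 fell among the L values. The log2 fold change was 1.1 (SE 0.28, adjusted p = 0.0149), and the ratio of the means was 2.53. The L loin with the most MSTN, that of S0384, also had the most FST of the L loins.

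FBXO32 stood at 128, 151, 138, 195 and 178 TPM in the ET loins, against 380, 1353, 550 and 2194 TPM in the L loins. Every L loin lay above every ET loin, which 21.6% of the genes tested did in this direction. The ET values spanned a narrow range and the L values a wide one, with S0385 highest. The means were 158 ± 28.0 TPM in ET and 1119 ± 833 TPM in L, and the log2 fold change was -2.50 (SE 0.42, adjusted p = 0.00306).

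TRIM63 stood at 178, 136, 357, 162 and 180 TPM in the ET loins, against 278, 866, 776 and 3280 TPM in the L loins. The groups overlapped, since the ET loin of S0276 exceeded the L loin of S0349. The means were 203 ± 88.1 TPM in ET and 1300 ± 1345 TPM in L, and the log2 fold change was -2.21 (SE 0.55, adjusted p = 0.0135). Without S0385 it was -1.58, a change of over 1.5 times on the linear scale, and the call held. FOXO1, the factor named above as upstream of both ligases, stood at 10.8, 37.8, 14.3, 12.3 and 11.6 TPM in the ET loins, against 14.4, 31.0, 40.4 and 96.2 TPM in the L loins. The groups overlapped, with the ET loin of S0242 above the L loins of S0349 and S0377. Its log2 fold change of -1.20 (SE 0.48) did not pass (adjusted p = 0.0757), and it passed without S0242 (-1.51, adjusted p = 0.0286) or without S0349 (-1.63, adjusted p = 0.0192).

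METTL21E stood at 82.6, 147, 99.6, 108 and 176 TPM in the ET loins, against 16.4, 5.61, 88.9 and 8.65 TPM in the L loins. S0384 was the L loin within the ET range, and it was also the L loin with the most MSTN. The log2 fold change was 2.74 (SE 0.60, adjusted p = 0.00817), and 3.52 without S0384. VCP, the substrate described in mice, was lower in ET loin at 139 ± 15.8 TPM, against 246 ± 47.3 TPM in L loin (log2 fold change -0.81, adjusted p = 0.00534).

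No myogenic factor passed in loin. MYOD1, a factor of the committed myoblast, stood at 5.17, 8.62, 6.56, 13.8 and 8.65 TPM in the ET loins, against 9.0, 3.27, 3.56 and 2.40 TPM in the L loins, so that S0349 alone of the L loins lay within the ET range. Its log2 fold change was 0.85 (adjusted p = 0.0628), and it passed with median-ratio scaling (1.07, adjusted p = 0.0468), without the ET loin of S0235 (0.99, adjusted p = 0.0436) and without the L loin of S0349. MYOG stood at 56.9, 60.0, 84.5, 61.6 and 78.5 TPM in the ET loins, against 118, 38.7, 35.8 and 21.7 TPM in the L loins. S0349 again stood apart from the other L loins, above all ET loins.

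MYF6 stood at 89.2, 99.7, 163, 79.9 and 94.6 TPM in the ET loins, against 86.6, 140, 176 and 166 TPM in the L loins (log2 fold change -0.43, adjusted p = 0.203), and MYF5 had 0.602 to 4.07 TPM in ET loins, against 0.496 to 1.46 TPM in L loins (0.45, adjusted p = 0.260). Both pairs of groups overlapped. Without the loin of S0349, which held the highest MYOG and MYOD1 and the lowest FBXO32, TRIM63, FOXO1 and MYF6 of the 4 L loins, the number of genes called was 9, with MYOD1, MYOG, MYF6 and FOXO1 added, against 31.2% of all genes. With the library of S0355 that is labelled loin and carries adipocyte markers put back, MSTN and METTL21E alone were called, against 6.46% of all genes.

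**Figure D2:**
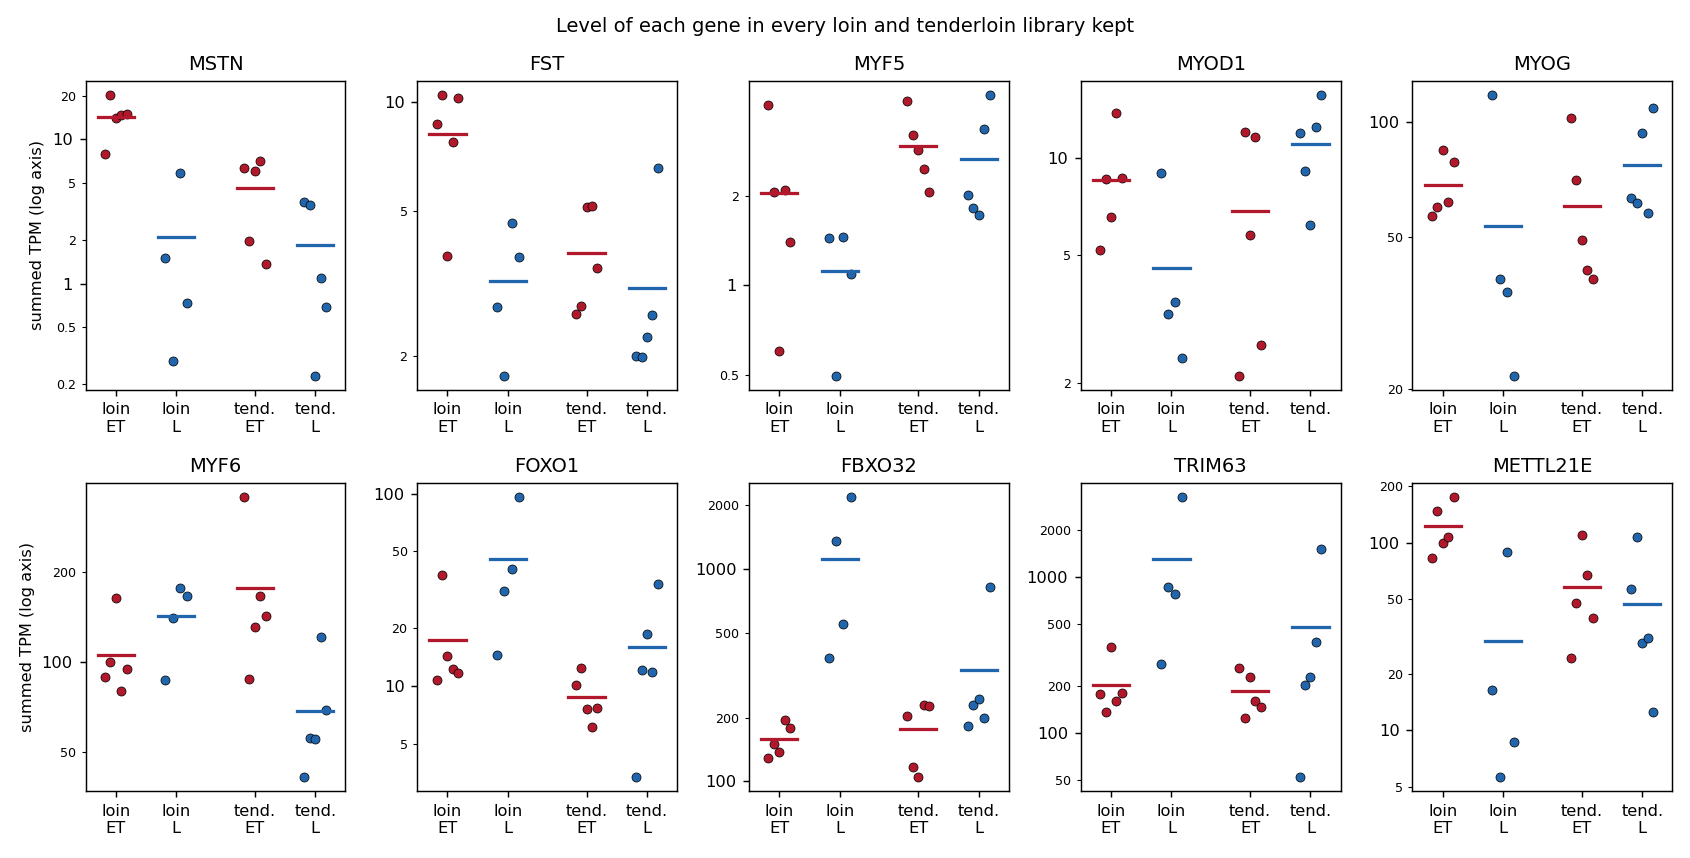
Summed TPM (log axis, own scale per panel) of each gene in every loin and tenderloin library kept; red points are ET animals, blue points L animals, and bars are group means. In loin the ET and L points do not overlap for MSTN and FBXO32, and in tenderloin they overlap for all 10 genes.

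Marker transcripts of cell types and fibres in loin are given here as values, whether or not they differed with the type. The 4 fibroblast markers were all higher in ET loin and summed to 140 to 803 TPM, against 111 to 205 TPM in L loin; the lowest ET sum was that of S0276. Of the 3 red cell markers both that were tested were higher in ET loin, and their sum was 28.8 to 92.0 TPM, against 3.10 to 12.7 TPM in L loin. Of 11 fast fibre genes 5 passed as higher in ET loin, as did 1 of 8 slow fibre genes. Over all genes tested 6.17% were higher. Slow fibre genes held 6.25% to 36.8% of the fibre gene TPM in ET loins, against 7.22% to 26.4% in L loins. The 4 skeletal muscle markers, of which 1 passed as higher, summed to 45006 to 59394 TPM in ET loins, against 25507 to 51962 TPM in L loins. The part of these differences in the values of the 10 genes was not tested.

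In tenderloin none of the 10 genes passed (limma, 5 ET and 5 L libraries), against 1.63% of the 10851 genes tested, 1.4% higher and 0.23% lower. The groups overlapped for all 10, whereas 5.24% of all genes did not overlap, 3.85% with ET above L and 1.39% with ET below L. At an unadjusted p under 0.05 there were 2, MSTN and MYF6, against 20.3% of all genes. MSTN stood at 6.37, 1.97, 6.06, 7.11 and 1.37 TPM in the tenderloins of the ET animals, against 3.71, 3.52, 0.230, 1.1 and 0.686 TPM in those of S0349, S0355, S0377, S0384 and S0385. The ET animals S0242 and S0326 lay among the L values. The log2 fold change was 1.0 with a 95% confidence interval of 0.02 to 1.98 (adjusted p = 0.239).

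MYF6 had the smallest p of the 10 genes in tenderloin. It stood at 355.3, 87.8, 130, 166 and 142 TPM in the ET tenderloins, against 41.1, 55.5, 55.4, 121 and 68.9 TPM in the L tenderloins. All but S0242 of the ET animals lay above all L animals. The log2 fold change was 1.29 (SE 0.36, adjusted p = 0.0861), and 0.996 without S0235, whose tenderloin held the most MYF6 of all libraries.

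The ligases overlapped in tenderloin. FBXO32 stood at 203, 117, 104, 229 and 226 TPM in the ET tenderloins, against 183, 230, 245, 198 and 827 TPM in the L tenderloins (log2 fold change -0.74, 95% confidence interval -1.60 to 0.12). TRIM63 stood at 260, 126, 231, 160 and 148 TPM in the ET tenderloins, against 52.1, 205, 228, 386 and 1518 TPM in the L tenderloins (-0.60, interval -2.05 to 0.85). S0385 had the highest value of both, as it did in loin, and without it the fold changes were -0.35 for FBXO32 and 0.02 for TRIM63. S0385 also had the highest FOXO1 of the tenderloins at 33.7 TPM, against 6.14 to 12.3 TPM in ET animals and 3.34 to 18.5 TPM in the other L animals.

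The remaining genes gave intervals that covered 0 in tenderloin. METTL21E stood at 24.2, 47.5, 110, 67.5 and 39.8 TPM in ET, against 56.5, 107, 29.2, 31.1 and 12.5 TPM in L, with a log2 fold change of 0.44 (interval -0.67 to 1.56). FST stood at 2.61 to 5.16 TPM in ET, against 2.0 to 6.59 TPM in L (0.31, interval -0.28 to 0.89). MYOD1 stood at 2.10, 12.0, 5.75, 11.6 and 2.62 TPM in ET, against 12.0, 9.08, 6.19, 12.5 and 15.7 TPM in L (-0.82, interval -1.70 to 0.07).

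MYOG had 38.8 to 102 TPM in ET tenderloins, against 57.9 to 109 TPM in L tenderloins (log2 fold change -0.40, interval -1.01 to 0.21), and MYF5 had 2.08 to 4.19 TPM, against 1.73 to 4.40 TPM (0.14, interval -0.34 to 0.62). Slow fibre genes held 43.9% to 58.0% of the fibre gene TPM in ET tenderloins, against 43.2% to 85.4% in L tenderloins. Fibroblast markers summed to 427 to 588 TPM in ET tenderloins, against 155 to 191 TPM in L tenderloins. Of these 4 genes 2 were called as higher in ET, against 1.4% of all genes.

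**Figure D3:**
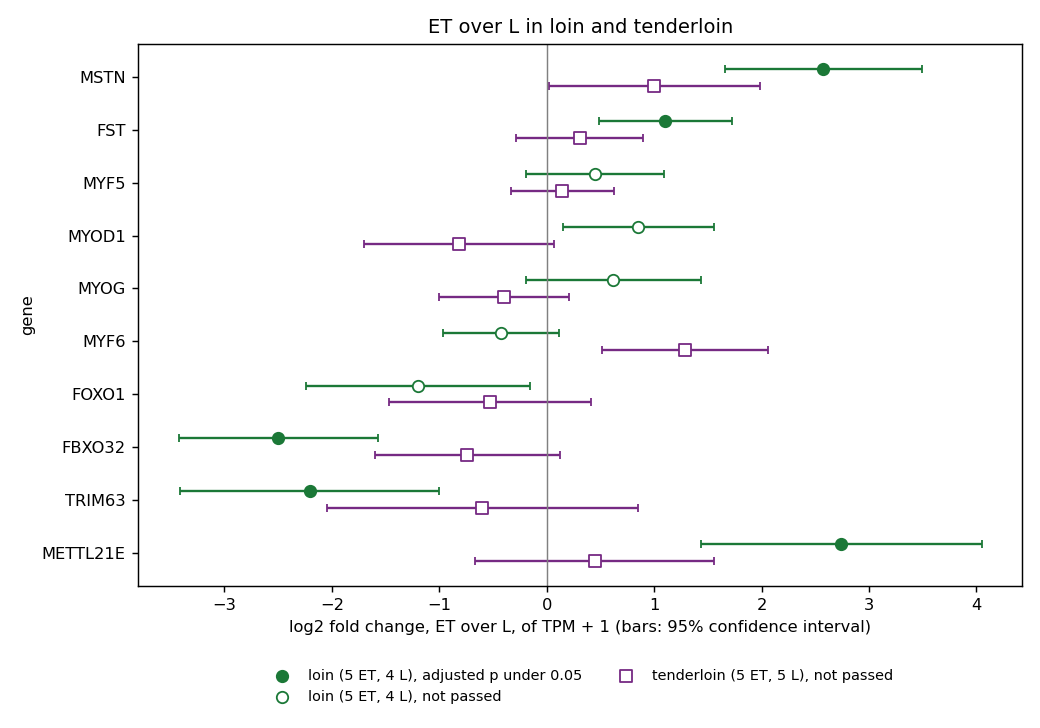
Log2 fold change of TPM + 1, ET over L, for each gene in loin (green circles) and tenderloin (purple squares), with 95% confidence intervals; filled symbols passed an adjusted p under 0.05. The point estimates of MYOD1, MYOG and MYF6 have opposite signs in the 2 muscles, while those of the other 7 genes share their sign.

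Whether the type difference itself differed between the muscles was tested by an interaction over the 19 muscle libraries kept. None of the 10 genes passed (limma), against 1.7% of the 10774 genes tested (0.121% positive and 1.58% negative), and 5 had an unadjusted p under 0.05 (MSTN, MYOD1, MYF6, FBXO32 and METTL21E), against 22.6% of all genes. The same animals gave both muscles, and with the animal as a block 4 of the 10 passed, against 9.63% of all genes, 0.687% higher and 8.95% lower. That fit draws on the 9 animals with both muscles kept. The interaction was 1.72 for MYOD1 (adjusted p = 0.0285), -1.66 for MYF6 (0.0271), -1.69 for FBXO32 (0.0110) and -1.51 for TRIM63 (0.0170), on the log2 scale as the type difference in loin minus that in tenderloin. Without the block these were 1.67, -1.71, -1.76 and -1.61, with adjusted p of 0.102, 0.0579, 0.118 and 0.321. The all-gene median of the blocked interaction was -0.27. MSTN (1.36, adjusted p = 0.134), FST (0.88, 0.148) and METTL21E (1.92, 0.0716) did not pass with the block, so the larger difference of these 3 genes in loin is not shown to differ from that in tenderloin. METTL21E passed in the fit without the block when animal S0384 was left out (3.14, adjusted p = 0.0418), where 151 of all 10789 genes tested passed. MYOG (1.55, adjusted p = 0.0477) and MYF6 (-1.78, adjusted p = 0.0496) passed when S0349 was left out. In that fit 341 of all 10774 genes passed, the most of any fit with 1 animal left out.

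Between the muscles, FOXO1 was higher and MYF5 lower in loin. Loin was set against tenderloin over 19 libraries with the type as a term, and 2 of the 10 genes passed, against 35.1% of the 10774 genes tested, 19.7% higher and 15.4% lower. FOXO1 was higher in loin at 29.9 ± 27.5 TPM (n = 9), against 12.3 ± 8.59 TPM in tenderloin (n = 10), with a log2 fold change of 1.09 (SE 0.35, adjusted p = 0.0190). MYF5, a factor of early myogenic cells, was lower in loin at 1.64 ± 1.07 TPM, against 2.82 ± 0.961 TPM in tenderloin (log2 fold change -0.60, SE 0.19, adjusted p = 0.0176). FOXO1 missed the threshold without animal S0384 (1.02, adjusted p = 0.0528).

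With the animal as a block 4 genes passed, against 41% of all genes. MSTN (0.98, adjusted p = 0.0277) and TRIM63 (0.77, adjusted p = 0.0236) were then also higher in loin; without the block they were at 0.84 (adjusted p = 0.0801) and 0.86 (adjusted p = 0.184). In the fit over all 5 tissues the loin and tenderloin difference of MSTN was 0.90 (adjusted p = 0.0427). That fit had no animal term and pooled the spread of all tissues. They include backfat and lymph, where MSTN reached at most 0.0574 TPM. Its SE was 0.32, against 0.37 in the fit of the 2 muscles without the block. With loin set against tenderloin and animal S0377 left out, 4 genes were called, MSTN and FST joining FOXO1 and MYF5. Of all 10787 genes tested in that fit, 3127 were called. METTL21E had 81.3 ± 60.7 TPM in loin, against 52.5 ± 33.4 TPM in tenderloin, and a log2 fold change of 0.11 whose sign turned in several settings. All 11 fast fibre genes were higher in loin and 7 of 8 slow fibre genes lower in the fit without the block, against 19.7% and 15.4% of all genes. The part of these fibre genes in the values above was not tested.

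Outside muscle none of the 10 genes passed between the types. In backfat 5 were tested and none passed (limma), against 8.57% of 12110 genes, 7.53% higher and 1.04% lower; METTL21E had an unadjusted p of 0.0189. METTL21E there stood at 12.3, 10.4, 5.12, 1.36 and 9.18 TPM in ET animals, against 7.72, 0.350, 0.0737 and 0.632 TPM in S0349, S0377, S0384 and S0385. S0349 lay among the ET values, and without it METTL21E passed. In that fit 858 of the 12102 genes tested passed, 777 higher and 81 lower in ET. In the same libraries adipocyte markers summed to 7814 to 16664 TPM in ET, against 469 to 7209 TPM in L, fibroblast markers to 6203 to 23189 TPM, against 919 to 3580 TPM, and red cell markers to 94.96 to 647 TPM, against 2.92 to 67.5 TPM. None of these 3 sums overlapped between the types, and their part in the METTL21E values was not tested. In brain 4 genes and in lymph 5 were tested, with none at an unadjusted p under 0.05; none of 13095 genes in brain and none of 11980 in lymph passed, while 8.24% and 4.38% of them had an unadjusted p under 0.05.

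Most of the wider atrophy list was also lower in ET loin. Of 33 further genes that the textbook account ties to muscle wasting, FOXO activity, autophagy or glucocorticoid response, 24 were lower in ET loin, 9 did not pass and 0 were higher, with a median log2 fold change of -1.51. Of all genes tested 25.2% were lower and 6.17% higher, with a median of -0.23. The list was chosen with earlier results of these data known, so it is no independent evidence of the direction. The 4 with the smallest p were SQSTM1, the autophagy receptor p62 (406 ± 77.9 TPM in ET, against 1367 ± 234 in L), MAP1LC3B, a coat protein of autophagosomes (137 ± 18.3, against 404 ± 114), IRS2, an adaptor of insulin signalling (3.62 ± 0.946, against 14.7 ± 5.03), and CDKN1A, a cell cycle inhibitor (88.2 ± 40.3, against 336 ± 57.9). The ubiquitin ligases FBXO30 (log2 fold change -2.13) and TRIM54 (-1.26, a close relative of TRIM63), FOXO3, the relative of FOXO1 (-1.92), and the glucocorticoid-induced genes FKBP5 (-1.92) and KLF15 (-1.53) were lower as well.

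Members of the atrophy list that did not pass in loin included TRIM55, another close relative of TRIM63, and the ligase TRIM32, at -0.07 and 0.22 on the log2 scale. With median-ratio scaling 20 of the 33 were lower, against 11.3% of all genes. With the library labelled loin of S0355 put back 6 were, against 5.91% of all genes. In tenderloin 1 of 33 passed as lower, against 0.23% of all genes. It was CEBPD, a transcription factor induced by glucocorticoids, at 28.0 ± 3.39 TPM in ET, against 84.1 ± 41.2 TPM in L (log2 fold change -1.43, adjusted p = 0.0318), and the median was -0.54 where that of all genes was 0.05. The interaction passed for NR3C1, the glucocorticoid receptor (-1.22, adjusted p = 0.0408), and FBXO30 (-1.71, adjusted p = 0.0449), 2 of 33 against 1.58% of all genes in that direction, and neither passed with median-ratio scaling. With the animal as a block it passed for 13 of 33, all negative, against 8.95% of all genes. Between the muscles 12 of 33 were higher and 3 lower in loin, against 19.7% and 15.4% of all genes, led by DDIT4, an inhibitor of mTORC1 signalling (1.90), and FOXO4 (0.75).

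**Figure D4:**
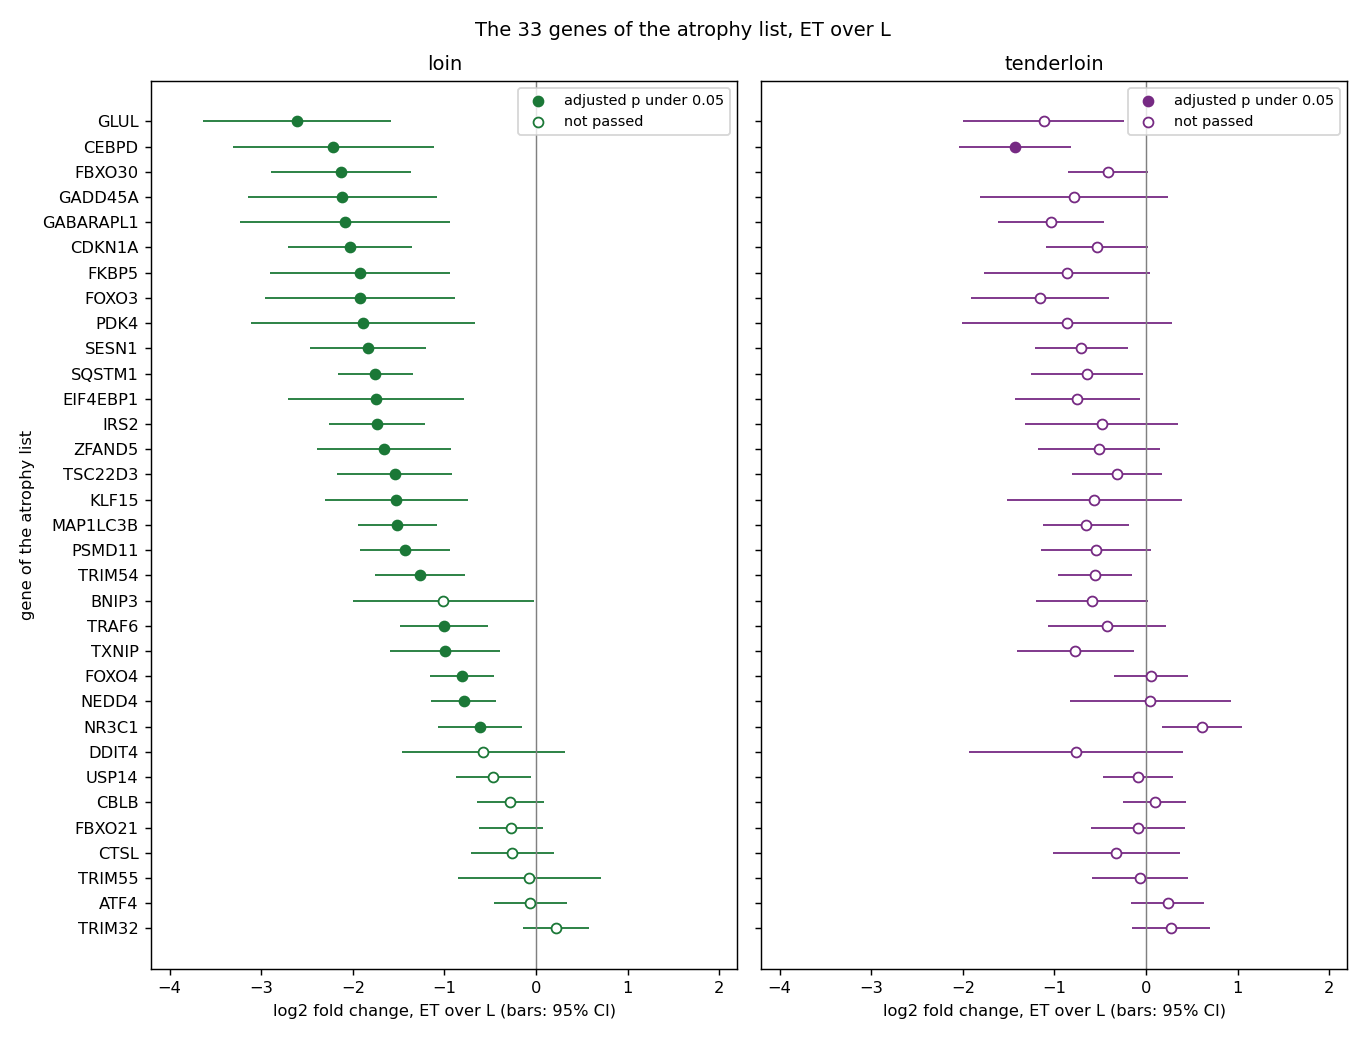
Log2 fold change of TPM + 1, ET over L, of the 33 further atrophy genes in loin (left) and tenderloin (right), with 95% confidence intervals and genes ordered by their loin value. Filled points passed an adjusted p under 0.05: 24 in loin, all below 0, and CEBPD alone in tenderloin.

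Of 17 genes tested from the myostatin and activin pathway, 5 were lower and 1 higher in ET loin, with a median of -0.11. Over all genes tested the shares were 25.2% lower and 6.17% higher and the median -0.23, so the list stood near the background. With median-ratio scaling 3 were lower and 2 higher, against 11.3% and 11.9% of all genes. The activin receptors ACVR2B (3.85 ± 1.29 TPM in ET, against 12.7 ± 4.68 in L; log2 fold change -1.47) and ACVR1B (-0.56), the signal transducer SMAD3 (-1.27), the protease FURIN that cleaves the myostatin precursor (-1.08) and the follistatin relative FSTL3 (-0.51) fell. Decorin (DCN), a matrix proteoglycan able to bind myostatin and also one of the fibroblast markers, was higher at 414 ± 191 TPM in ET, against 122 ± 36.2 TPM in L (1.59). In tenderloin DCN (1.46) and TGFB1 (0.96) were higher in ET, 2 of 17 against 1.4% of all genes, and none was lower. Between the muscles 4 were higher in loin and 3 lower, against 19.7% and 15.4% of all genes, led by the protease BMP1 (-1.79), SMAD7 (-0.79) and the myostatin inhibitor WFIKKN2 (1.22).

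Of the further myogenic genes, 20 were tested in loin, where 3 were higher and 6 lower in ET, with a median of -0.29. The lower count and the median were near those of all genes, 25.2% lower and a median of -0.23, and 6.17% of all genes were higher. With median-ratio scaling 4 were higher and 4 lower, against 11.9% and 11.3% of all genes. The 3 higher ones, ID1 (1.61), ID2 (0.71) and ID3 (0.69), encode inhibitors that bind the partners of the myogenic factors. TCF3 was lower (-0.72), while TCF4 and TCF12 did not pass in loin. TCF4 averaged 4.39 TPM in ET loins, against 2.52 TPM in L loins. TCF12 averaged 9.69 TPM in ET loins, against 12.3 TPM in L loins. Desmin (DES), the intermediate filament of muscle, stood at 410 ± 93.3 TPM in ET, against 985 ± 277 TPM in L (-1.25), and MEF2D (-0.75), NCAM1 (-1.08), CDH15 (-0.91) and HDAC4 (-1.02) were also lower. In tenderloin ID1 (1.85), ID2 (1.35) and ID3 (1.18) were higher in ET together with VGLL2 (1.55) and TCF4 (0.79), 5 of 21 tested and none lower, against 1.4% higher and 0.23% lower over all genes. With median-ratio scaling 3 were higher and 1 lower there, against 0.866% and 0.313% of all genes. ID1, ID2 and ID3 were thus called in the same direction in both muscles. Of the METTL21 list, VCP was the 1 of 4 genes tested to pass in loin, where 25.2% of all genes were lower, and none passed in tenderloin.

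At the level of single transcripts, the ligases and METTL21E rested mainly on 1 transcript each, with 85.2% of the TRIM63 and 72.4% of the METTL21E TPM in muscle. The METTL21E transcripts matched no pig protein as best hit. The main one matched the bovine protein at 80.7% identity, and the others a human one at 76.8% over 56 residues and the bovine one at 70.1%. In loin the main transcripts of MSTN, FBXO32, TRIM63 and METTL21E passed, as did 1 further transcript each of FBXO32 and METTL21E, against 8.64% of 28158 transcripts, while FST did not (adjusted p = 0.0536). In tenderloin none of the 23 transcripts passed (limma), against 0.0167% of 29859 transcripts. At an unadjusted p under 0.05 there were 4, both of MYF6, the main one of FBXO32 and 1 of MYOD1, against 14.7% of all transcripts. The 2 transcripts of MYOD1 had different patterns, a difference that was not tested. A transcript from an ET loin assembly averaged 5.85 ± 2.64 TPM in ET, against 1.54 ± 1.21 TPM in L loins, and 4.84 ± 4.09 in ET, against 4.08 ± 0.554 in L tenderloins. The other, from an L tenderloin assembly, averaged 2.70 ± 2.49 TPM in ET, against 3.02 ± 1.84 TPM in L loins, and 1.99 ± 2.26 in ET, against 7.01 ± 3.18 in L tenderloins. Both match all 319 residues of the pig protein, at 99.7% and 99.4% identity, so reads can be divided between them and their separate levels are uncertain.

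**Figure D5:**
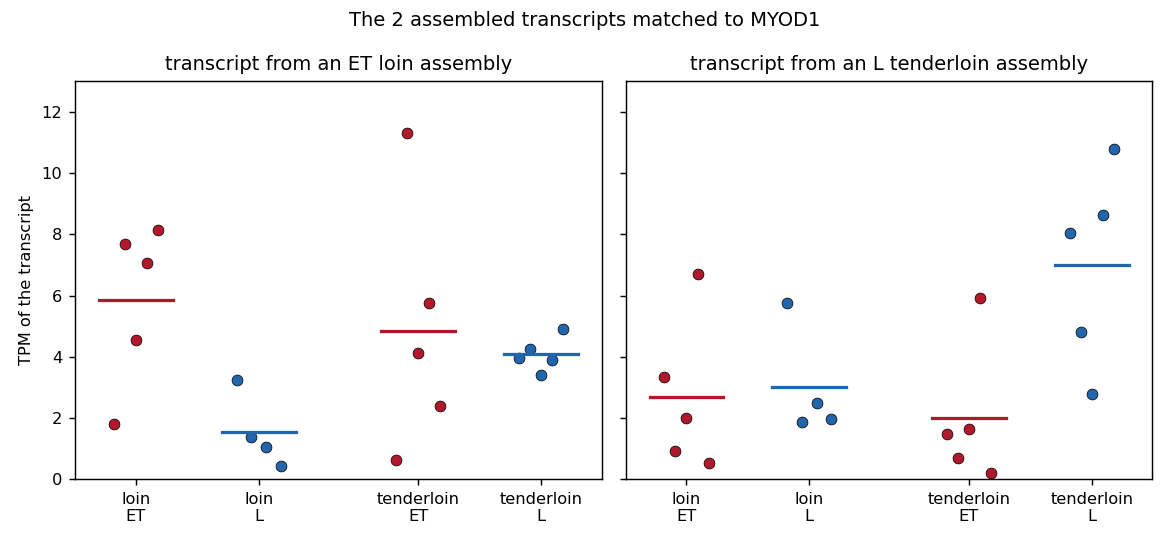
TPM (linear axis from 0) of the 2 assembled transcripts matched to MYOD1 in each loin and tenderloin library kept; red points are ET animals, blue points L animals, bars are means. The transcript from the ET loin assembly (left) has its highest mean in ET loins, at 5.85 TPM, and the one from the L tenderloin assembly (right) in L tenderloins, at 7.01 TPM.

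The E value limit left out 1 transcript matched to mouse FBXO32 over 35 residues at 85.7% identity (E value 1.03e-10), while the weakest transcript inside it had an E value of 2.07e-15. The one outside averaged 28.0 ± 5.47 TPM in ET, against 172 ± 163 TPM in L loins, and 24.5 ± 7.97 in ET, against 46.0 ± 45.5 in L tenderloins. Including it gave FBXO32 a log2 fold change of -2.44 in loin.

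Genes with the most similar profiles over the 19 muscle libraries, after each muscle's mean was subtracted, are a description, because libraries of 1 animal are not independent and the type difference in loin is in the measure. Among 7522 genes, named by their Swiss-Prot entries, those nearest MSTN by Pearson r were PBX3, TTC32, SMIM8 and G6PT1, at 0.90 to 0.89. SMIM8 was also among the 4 nearest METTL21E, with RFESD, RN128 and NDUS4, at 0.91 to 0.90. FBXO32 was nearest CEP20, TDIF1, CRERF and ATG2A, a protein of autophagy, at 0.95 to 0.94. TRIM63 was nearest ATRAP, GCN1, MPRD and ZFAN5, at 0.95 to 0.92, and MYF6 was nearest RALA, NRDC, BACD2 and SMYD2, at 0.79 to 0.75.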

How the data were processed

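Per the labels' protocols, TRIzol was used for RNA extraction and a stranded mRNA kit for the libraries. The submitters' processing notes name Trimmomatic 0.36 (read trimming), Salmon 1.10.0 (quantification) and the pig genome build Sscrofa11.1, with no stated role. The deposited values are TPM of 57085 assembled transcripts per library, made by the authors and summing to 1000000 in each, so read depth is unknown and precision comes from the spread between animals. The authors' deposited annotation table gives each transcript's best Swiss-Prot protein, its E value and other fields that are not per-sample measurements.

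From these, TPM were summed per entry name over 32153 transcripts with an E value of at most 1e-10, giving 14412 genes; 1864 transcripts with larger E values, 2444 whose best hit was a repeat protein and 23 with a non-animal hit were dropped. Tests were made in R 4.3.3 by limma 3.58.1, two-sided, with its variance trend, on log2(TPM + 1) of genes whose TPM averaged 1 or more in the fit. P-values were Benjamini-Hochberg adjusted over all genes tested, and calls needed an adjusted p under 0.05. The pseudocount understates the fold changes of low genes such as MSTN and MYF5. The steps were tested on simulated data.

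The comparisons were ET against L in each tissue, loin against tenderloin, the type by muscle interaction, and both muscles against each other tissue. Alternatives were the pseudocount, the filter on low values, median-ratio scaling, a stricter E value, 1 transcript per entry, all libraries under their labels, each replicate left out and the animal as a block. Loin and tenderloin came from the same animals, so the numbers pair the samples. Deviations from the group means correlated across genes at a median r of 0.47 (0.35 to 0.63, 9 pairs) within an animal, and at -0.15 (36 pairs) between animals of the same type. Subtracting group means makes the deviations of a group cancel. The value between animals is therefore pushed negative and is no independent baseline.

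All 10 genes are described. From 4 pathway lists, counts are given with up to 4 called genes per list by smallest p. Further genes were named by function, in places more than the 4 first planned. Of 88 list genes, 80 were matched. The 4 nearest genes are given for MSTN, METTL21E, FBXO32, TRIM63 and MYF6 among genes averaging 5 TPM or more in muscle. The genes, lists and left-out libraries were chosen with earlier results of these data known. No transcript or protein sequence was used here.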

Additional observations from a re-analysis of the deposited data

Results flagged for a closer look

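In 10 of 69 groups of 4 or 5 libraries, the highest or lowest library lay apart from its nearest neighbour by a share of the group's range above Dixon's 95% critical value. Chance flags about 1 in 20 groups where samples are independent and normally distributed, and these groups share animals. The rule was applied to TPM without a log, and whether these follow a normal distribution was not tested. The L animal S0385 was the distant one in tenderloin for FST (6.59 TPM), FBXO32 (827 TPM) and TRIM63 (1518 TPM), and in backfat for TRIM63 (8.65 TPM). In loin the distant libraries were those of S0276 for MYF6 (163 TPM) and TRIM63 (357 TPM) and of S0242 for FOXO1 (37.8 TPM) among ET animals, and of S0384 for METTL21E (88.9 TPM) among L animals. FOXO1 was also distant in the lymph library of S0242 (43.8 TPM), and METTL21E in the backfat library of S0349 (7.72 TPM).

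The type difference differed between loin and tenderloin in the fit with the animal as a block for MYOD1 (1.72), MYF6 (-1.66), FBXO32 (-1.69) and TRIM63 (-1.51), on the log2 scale as loin minus tenderloin.

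Libraries that were left out because they stood apart from their labelled tissue held these transcripts above every other library of that tissue. The library labelled backfat of S0355, which carried skeletal muscle markers, had MSTN at 5.90, MYF5 at 1.98, MYOD1 at 6.32, MYOG at 87.1, MYF6 at 79.7, FBXO32 at 311, TRIM63 at 325 and METTL21E at 190 TPM. The library labelled loin of the same animal, which carried adipocyte markers, had FST at 18.3 TPM, and the library labelled lymph of S0235 had MSTN at 1.71 TPM.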

How the results depend on the processing

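The number of the 10 genes called stayed at 0 in tenderloin, brain and lymph and at 7 to 8 for the muscle pattern under every alternative run. Over all genes, calls ran from 5 of 10878 to 374 of 10862 in tenderloin and from 0 to 2 of 14320 in lymph. Brain had 0 in every run. The muscle pattern held for 6.48% of all genes in the fit given above. In loin, 5 were called, against 2 with all libraries under their labels and 5 to 9 with 1 library left out. Over all genes these fits called 3317 of 10571, 721 of 11168, and 1913 of 10576 to 3339 of 10591. Loin against tenderloin gave 2, against 1 with all libraries, 4 with the replicate block and 1 to 4 without 1 animal. The all-gene calls there were 3782 of 10774, 1630 of 11092, 4422 of 10774, and 3060 of 10789 to 4140 of 10741. The interaction gave 0, against 4 with the replicate block and 0 to 2 without 1 animal. Its all-gene calls were 183 of 10774, 1038 of 10774, and 8 of 10787 to 341 of 10774. Backfat gave 0 to 1 without 1 library, against 316 of 12157 to 1374 of 12109 over all genes. The replicate block changed no call other than those named above.

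Signs turned where values were small or libraries were put back. With all libraries, MYF6 was at 0.996 in loin and -0.48 for loin against tenderloin, METTL21E at -0.021 in that comparison, and the TRIM63 interaction at 0.11. With 1 library or animal left out, TRIM63 in tenderloin ran between -1.19 and 0.022 (without S0385), and, between the muscles, MYOG between -0.37 and 0.029 (without S0385) and METTL21E between -0.12 and 0.42, negative without S0235, S0242, S0326 or S0384. The cause was not tested. Genes below a mean TPM of 1 were not tested, and 4 L loins limit the loin comparison.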
